A study of Homo sapiens with 6 samples.

Results

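RP13-516M14.8, FBXO10, DNHD1, SPOCK2, TNR, FAM135B, RP11-84C10.2, SIRPB2 and ITPK1 were among the genes that rose most strongly, with little spread between replicates, when MOLM13 cells were given the METTL3 degrader ZW27941. They were 9 of the 56305 genes in the deposited counts, and all 9 passed the filter on low counts that left 20399 genes for testing. The genes were chosen on their values in the comparison described here, so their own differences are given as a description, with no test. MOLM13 is an acute myeloid leukemia cell line that carries an internal tandem duplication of FLT3 and the t(9;11) translocation, and all libraries came from this line. Cells were kept for 24 h with the solvent DMSO (3 libraries) or with 1 μM ZW27941 (3 libraries), a PROTAC that binds METTL3 at one end and the ubiquitin ligase subunit VHL at the other. RNA was sequenced, and reads were counted per gene symbol. The labels number the replicates and do not say that they were separate cultures, so p-values measure only the spread between these libraries.

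METTL3 is the catalytic subunit of the complex that writes N6-methyladenosine (m6A) on messenger RNA, a mark that reader proteins recognise and that is often tied to faster decay of the transcript. A PROTAC removes its target by bringing a ubiquitin ligase next to it, after which the proteasome degrades the protein. The named genes do not form 1 pathway. FBXO10 encodes an F-box protein, the part of an SCF ubiquitin ligase that picks the substrate, and is known for targeting the apoptosis inhibitor BCL2. DNHD1 encodes a protein related to the dynein heavy chains and is known from the sperm flagellum. SPOCK2 (testican-2) and TNR (tenascin-R) encode secreted proteins of the extracellular matrix that are best known from the brain. SIRPB2 belongs to the signal regulatory proteins, immunoglobulin-type receptors of myeloid cells. ITPK1 encodes an inositol phosphate kinase on the route to inositol hexakisphosphate. FAM135B is a little characterised gene. RP13-516M14.8 and RP11-84C10.2 carry the names of genomic clones and have no gene symbol.

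Positions were taken from the GENCODE v29 annotation of GRCh38, which held 7 of the 9 symbols, each as a protein-coding gene. FBXO10 lies at chr9:37510892-37576349 on the minus strand, DNHD1 at chr11:6497260-6593758 on the plus strand, SPOCK2 at chr10:72059035-72089032 on the minus strand and TNR at chr1:175315194-175743770 on the minus strand. SIRPB2 lies at chr20:1470741-1491587 and ITPK1 at chr14:92936914-93116320, both on the minus strand, and the position of FAM135B is given with its values. The clone-named genes had no entry under these names and are given without a position. The 7 genes therefore sit on 7 chromosomes, and their spans run from 20847 bases (SIRPB2) to 428577 bases (TNR).

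The bases just upstream of the transcription start are shown for FBXO10, DNHD1 and SPOCK2, the genes with the largest rises among those with a promoter in the RefSeq table of GRCh38.p14. Promoters were read there for 5 of the 9 genes (FBXO10, DNHD1, SPOCK2, SIRPB2 and ITPK1), and FAM135B was left out of the search. Each sequence is the 250 bases before the start, 5′ to 3′ on the strand of the gene, and capitals mark letters that matched a searched motif on either strand. The windows are chr9:37576381-37576630 (minus strand) for FBXO10, chr11:6497030-6497279 (plus strand) for DNHD1 and chr10:72089033-72089282 (minus strand) for SPOCK2.
FBXO10: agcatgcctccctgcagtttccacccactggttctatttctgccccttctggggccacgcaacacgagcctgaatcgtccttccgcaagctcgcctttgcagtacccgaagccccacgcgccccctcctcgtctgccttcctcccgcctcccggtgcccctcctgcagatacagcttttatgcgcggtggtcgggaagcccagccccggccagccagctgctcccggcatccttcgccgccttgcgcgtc
DNHD1: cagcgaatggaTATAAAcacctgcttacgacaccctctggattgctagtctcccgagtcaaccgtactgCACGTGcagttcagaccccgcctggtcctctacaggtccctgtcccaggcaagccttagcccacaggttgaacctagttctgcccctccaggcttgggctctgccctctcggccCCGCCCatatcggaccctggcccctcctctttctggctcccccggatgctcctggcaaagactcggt
SPOCK2: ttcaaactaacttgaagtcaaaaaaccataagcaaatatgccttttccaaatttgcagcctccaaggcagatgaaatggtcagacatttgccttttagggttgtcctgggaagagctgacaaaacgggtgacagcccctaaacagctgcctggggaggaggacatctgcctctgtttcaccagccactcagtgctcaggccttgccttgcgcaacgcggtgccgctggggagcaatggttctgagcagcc
The motifs searched on both strands were the TATA box with the letters TATAAA, the CCAAT box, the GC box with the letters GGGCGG, the E-box with the letters CACGTG, the cyclic AMP response element with the letters TGACGTCA and the C/EBP-ATF element with the letters TGATGCAA. The DNHD1 window held a TATA box, an E-box and a GC box, whereas none of these letters was found in the FBXO10 and SPOCK2 windows shown. Among 35116 promoter windows of the same length, 10.7% held TATAAA, 6.34% held CACGTG and 42.6% held GGGCGG. GC content was 66.0% for FBXO10, 60.8% for DNHD1 and 51.6% for SPOCK2, against a median of 58% over all windows. No motif was found in all of the promoters that were read, and a match of letters says nothing about binding in these cells.

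The libraries held between 143454176 and 178744976 counts on genes, and TMM factors, which scale libraries for composition, ran from 0.994 to 1.01. Levels are given as CPM, counts scaled to a common library total with these factors. Chi-square statistics per degree of freedom between replicates of a group were 4.72 to 12.9, and the highest value was between ZW27941 replicates 1 and 3. Sampling noise alone gives about 1 if each count is a separate read. The counts on genes exceed the raw reads per sample that the labels state, so whether each count is a separate read is not known. The counting errors given below assume that each is. Of the 13 markers of MOLM13 and myeloid leukemia, all were tested, and the summed level was 3234 to 3298 CPM in DMSO and 3533 to 3609 CPM on ZW27941. Of these markers, 8 were higher and 0 lower at a Benjamini-Hochberg adjusted p below 0.05 in edgeR, while 1 was lower at an unadjusted p under 0.05 and DESeq2 called 7 higher and 0 lower. The 5 that did not pass in edgeR were CD33, FLT3, HOXA9, MEIS1 and KMT2A. LYZ made the largest part of the sum, at 963 ± 31.2 CPM for DMSO and 1160 ± 34.7 CPM for ZW27941 (SD, n = 3 each). CD33, which marks myeloid blasts, was at 66.4 ± 1.08 CPM for DMSO and 67.9 ± 1.38 CPM for ZW27941 (SD, n = 3 each). The summed markers of T cells, B cells, epithelium or fibroblasts, each list taken alone, did not exceed 2.26 CPM in any library, and KRT19 of epithelium had 0 counts in every DMSO library and at most 2 in a ZW27941 library. In bulk RNA, a change in the number of cells that express a gene cannot be told apart from a change in RNA per cell.

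Each of the 9 genes was higher in every ZW27941 library than in every DMSO library, and each had an adjusted p under 0.05 in edgeR's quasi-likelihood test. Both follow from how the genes were chosen. Small spread between replicates was part of that choice too, so the spreads given below are a description. Over all 20399 genes tested, 16.3% were higher with an adjusted p under 0.05 and 13.8% were lower (30.1% in either direction), and 21.7% had every ZW27941 library above every DMSO library. The 9 genes had a median log2 fold change of 0.78, against −0.0019 over all genes tested. From the largest to the smallest rise, the fold ran from 3.13 to 1.39.

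RP13-516M14.8 had the largest rise of the 9 genes. Its libraries held 304, 319 and 313 counts in DMSO and 1258, 932 and 991 counts on ZW27941, which correspond to 2.12, 2.12 and 2.05 CPM in DMSO and 6.98, 6.46 and 6.20 CPM on ZW27941. The lowest ZW27941 library was 2.92 times the highest DMSO library. In DMSO, the coefficient of variation between replicates was 1.95%, below the 5.66% that counting error alone gives at this depth, so these libraries agreed more closely than counts of this size do on average. On ZW27941 it was 6.04% against 3.07% from counting.

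FBXO10, the F-box gene, had 6.22, 5.75 and 5.58 CPM in DMSO and 14.1, 13.4 and 14.9 CPM on ZW27941. The means were 5.85 ± 0.330 for DMSO and 14.2 ± 0.754 CPM for ZW27941 (SD, n = 3 each), and the log2 fold change was 1.28 with a standard error of 0.0546. Both groups were spread alike, with coefficients of variation of 5.64% and 5.32%, and the lowest ZW27941 library was 2.16 times the highest DMSO library.

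DNHD1, the dynein-related gene, had 19.4, 21.0 and 19.2 CPM in DMSO and 38.1, 37.7 and 37.2 CPM on ZW27941. The means were 19.9 ± 0.990 for DMSO and 37.6 ± 0.474 CPM for ZW27941 (SD, n = 3 each), a 1.90-fold rise and a log2 fold change of 0.92 with a standard error of 0.0345. The DMSO libraries were the more spread, with replicate 2 the highest of the group, and the ZW27941 libraries lay within a coefficient of variation of 1.26%, close to the 1.28% from counting error.

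The genes for secreted matrix proteins had low levels. SPOCK2 had 1.60, 1.82 and 1.65 CPM in DMSO and 3.10, 3.19 and 3.15 CPM on ZW27941, a log2 fold change of 0.90 with a standard error of 0.0845. These levels rest on 230 to 274 counts in DMSO and 460 to 559 counts on ZW27941, and the coefficient of variation on ZW27941 (1.43%) was below the 4.44% from counting error. TNR had 2.77, 2.65 and 3.27 CPM in DMSO and 5.16, 5.26 and 4.49 CPM on ZW27941, a log2 fold change of 0.78 with a standard error of 0.0854. TNR was the most spread of the 9 genes, with coefficients of variation of 11.3% in DMSO and 8.50% on ZW27941 against 4.81% and 3.53% from counting. DMSO replicate 3 was the highest of its group and ZW27941 replicate 3 the lowest of its group, and the lowest ZW27941 library was still 1.37 times the highest DMSO library.

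Because SPOCK2 and TNR are known from nervous tissue, markers of neurons and glia were read beside them. Their summed level was 209 to 222 CPM in DMSO and 216 to 221 CPM on ZW27941, so the groups overlapped. This sum came mostly from MBP, a myelin gene, at 183 ± 6.03 CPM for DMSO and 183 ± 2.80 CPM for ZW27941 (SD, n = 3 each). OLIG2, a transcription factor gene of the oligodendrocyte lineage, was at 28.8 ± 0.468 CPM for DMSO and 30.4 ± 0.508 CPM for ZW27941 (SD, n = 3 each), and the synaptic gene SNAP25 at 3.72 ± 0.297 and 3.90 ± 0.197 CPM (SD, n = 3 each). The other 3 markers, GFAP, MOG and RBFOX3, had at most 3, 2 and 1 counts in a DMSO library and at most 0, 1 and 2 counts in a ZW27941 library. All libraries came from the MOLM13 line, and a link between these genes and the rise of SPOCK2 and TNR was not tested. Of the 6 markers, 3 were tested, and 0 passed in edgeR's quasi-likelihood test and 0 in DESeq2, while 1 (OLIG2) was higher at an unadjusted p under 0.05.

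FAM135B, SIRPB2, RP11-84C10.2 and ITPK1 rose less in fold than the genes above. FAM135B, at chr8:138130023-138496822 on the minus strand, had 31.0, 31.0 and 32.1 CPM in DMSO and 49.7, 48.7 and 48.0 CPM on ZW27941, a log2 fold change of 0.64 with a standard error of 0.0292. SIRPB2, the myeloid receptor gene, had 21.6, 21.3 and 22.0 CPM in DMSO and 33.1, 32.2 and 31.8 CPM on ZW27941, a log2 fold change of 0.58 with a standard error of 0.0313. For both genes, the spread within each group was a small part of the distance between the groups. The summed myeloid markers, given above and with LYZ as the largest part, were also higher in every ZW27941 library. Their part in the rise of SIRPB2 was not tested.

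RP11-84C10.2 held the most counts of the 9 genes, with 59.6, 56.2 and 56.6 CPM in DMSO and 87.0, 82.2 and 84.0 CPM on ZW27941, a log2 fold change of 0.56 with a standard error of 0.0293. ITPK1, the inositol phosphate kinase gene, had 43.8, 44.2 and 44.0 CPM in DMSO and 61.6, 60.7 and 61.8 CPM on ZW27941. Its means were 44.0 ± 0.170 for DMSO and 61.4 ± 0.573 CPM for ZW27941 (SD, n = 3 each), a 1.39-fold rise and a log2 fold change of 0.48 with a standard error of 0.0263. ITPK1 had the smallest rise and the closest replicates, with coefficients of variation of 0.386% in DMSO and 0.934% on ZW27941, both below the 1.24% and 1.00% from counting error.

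**Figure D1:**
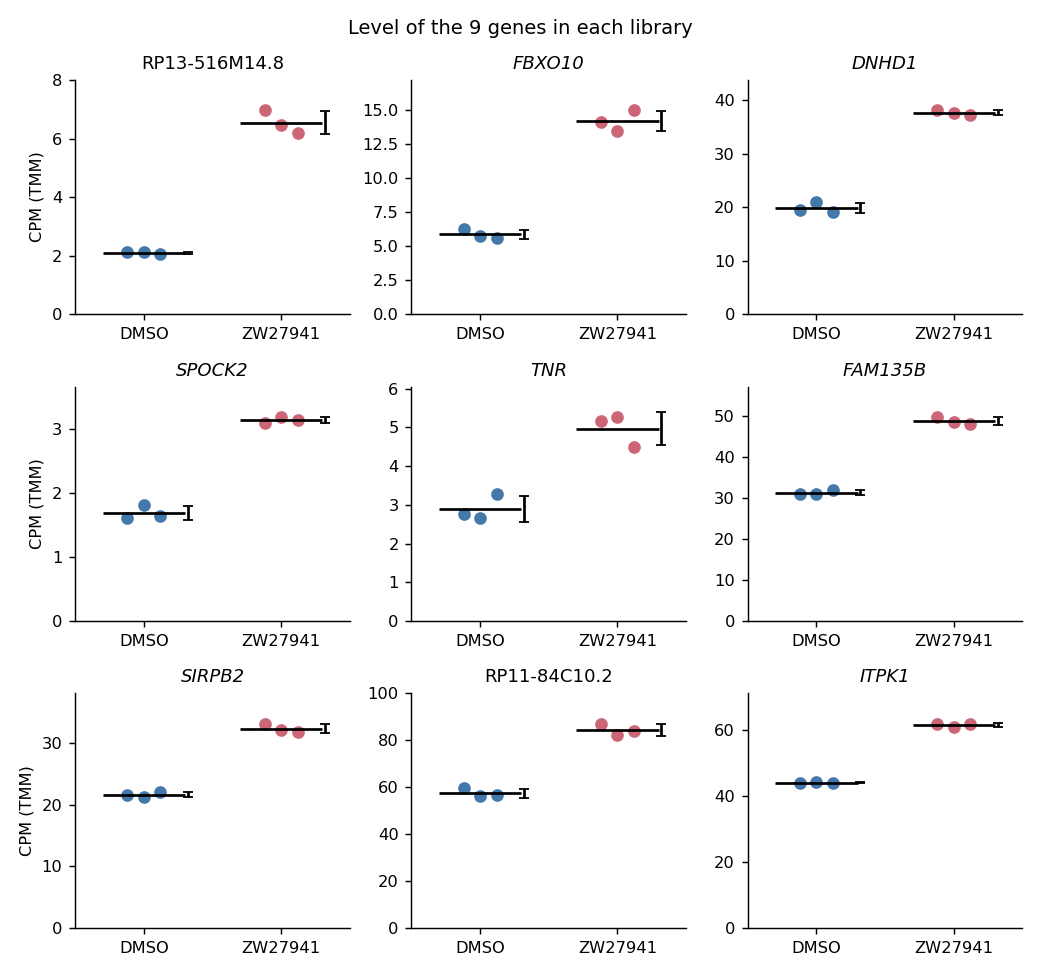
Level of each of the 9 genes in CPM (TMM normalized, axes from 0) in the 3 DMSO and 3 ZW27941 libraries. Points are libraries in the order of their replicate number, lines are group means and bars are ± 1 SD (n = 3). In all 9 panels the ZW27941 points lie above the DMSO points, and TNR shows the widest spread.

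Of 2882 genes called higher whose mean log2 CPM was 1 or more, 2762 had no overlap between groups. Ranked by rise among these, RP13-516M14.8, FBXO10, DNHD1, SPOCK2 and TNR held places 1 to 5, while FAM135B was at place 19, SIRPB2 at 28, RP11-84C10.2 at 35 and ITPK1 at 54. TNR, with a log2 fold change of 0.78, was the last of the leading genes, and the gene just outside was TST, a mitochondrial sulfurtransferase gene, with 0.77. At this level, larger fitted rises were seen for the non-coding RNAs RNA5-8S5 (3.82), RMRP (1.91), SNORD3A (1.86) and RPPH1 (1.70), but their groups overlapped. Genes with a lower mean level were left out of this ranking. Among these, RP13-516M14.10 (1.84, above RP13-516M14.8) and the matrix gene SPARC (1.44, above FBXO10) had no overlap between groups. The 9 genes were chosen for such a rise, so their places are a description. Ranked by p among raised genes instead, DNHD1, FBXO10, RP13-516M14.8, FAM135B, RP11-84C10.2 and SIRPB2 held places 1 to 6 and ITPK1 place 8, while SPOCK2 was at 92 and TNR at 189.

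**Figure D2:**
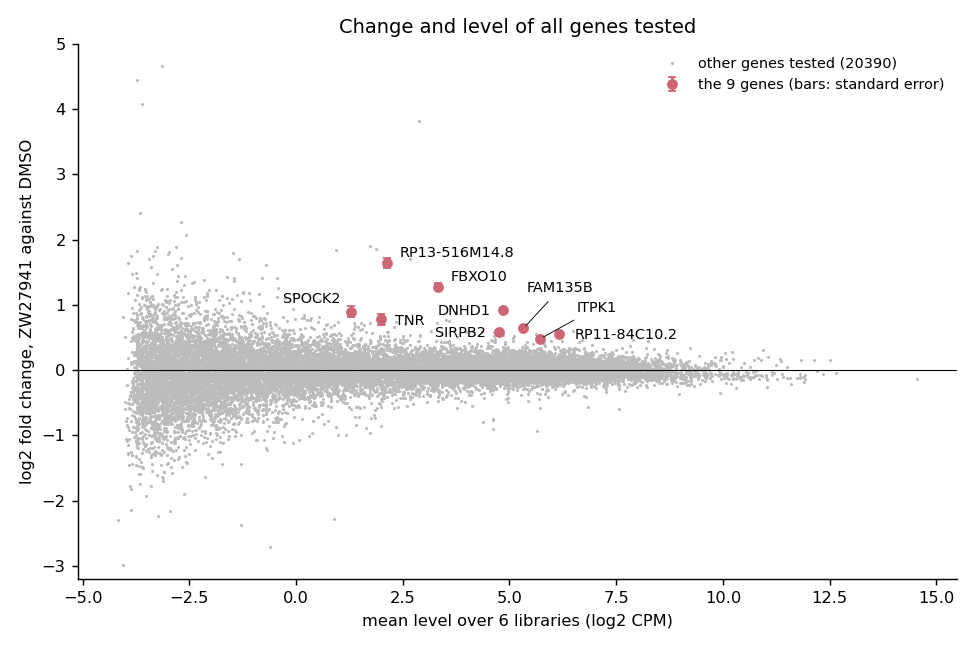
Log2 fold change of ZW27941 against DMSO plotted against mean level (log2 CPM over 6 libraries) for the 20399 genes tested. Red points with standard errors are the 9 genes, and grey points are the other genes. The 9 genes lie between 0.48 (ITPK1) and 1.64 (RP13-516M14.8), and some grey points, among them RNA5-8S5 (3.82), RMRP (1.91) and SNORD3A (1.86), lie higher.

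Levels can be compared between genes only per length, so CPM was divided by the length of the merged exons in kilobases for the 7 genes with a position. In DMSO, ITPK1 was the highest of the 7 on this scale, at 6.49 ± 0.0250 CPM per kb (SD, n = 3), followed by SIRPB2 at 4.30 ± 0.0772 and FAM135B at 2.30 ± 0.0476 CPM per kb (SD, n = 3). DNHD1 (0.977 to 1.07 CPM per kb) and FBXO10 (0.930 to 1.04 CPM per kb) overlapped in DMSO, as did SPOCK2 (0.244 to 0.277 CPM per kb) and TNR (0.205 to 0.252 CPM per kb). On ZW27941, FBXO10 stood above DNHD1, at 2.36 ± 0.126 against 1.92 ± 0.0241 CPM per kb (SD, n = 3), and the other genes kept their order. The length takes in the exons of all annotated transcripts, used in these cells or not. FBXO10 shares 48.0% of its merged exons with another gene, so its place beside DNHD1 is uncertain.

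GGACT is a common form of the sequence at which m6A is written. The longest annotated transcript held 17 GGACT sites for TNR, 10 for DNHD1, 9 for FAM135B, 7 for SPOCK2, 6 for FBXO10, 4 for ITPK1 and 3 for SIRPB2. Per kilobase this ran from 0.659 for ITPK1 to 1.31 for TNR and FBXO10, and 5 of the 7 genes were above the median of tested genes with a position, 0.924. A position was found for 77.8% of the 9 genes and 77.6% of the tested genes, both under 80%, so the comparison is void as a check of the set. No m6A was measured in these libraries.

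Genes that overlap on the genome can share reads, so overlaps were read for the 7 genes with a position. FBXO10 shares 2877 exonic bases with AL513165.2 on the same strand, which is 48.0% of its merged exons. Accession-type names like this one were not matched to the deposited counts, so whether these hold the gene is not known. How reads from the shared exons were assigned is not known either, and the FBXO10 counts are uncertain in this respect. DNHD1 shares 472 exonic bases (2.40%) with AC084337.2 on the same strand. SIRPB2 shares 492 exonic bases (9.77%) with NSFL1C, a cofactor gene of the p97 ATPase, on the same strand. NSFL1C was at 36.2 CPM in DMSO and 36.7 CPM on ZW27941, a log2 fold change of 0.02 (adjusted p = 0.663 by edgeR's quasi-likelihood statistic, Benjamini-Hochberg adjusted), and did not pass the test. TNR overlaps Z94057.1 on the opposite strand by 140 exonic bases (1.08%), and ITPK1-AS1, which lies within ITPK1 on the opposite strand with no shared exonic base, had 0 to 4 counts per library. Reads that HTSeq could not assign to 1 gene alone amounted to 4.38% to 4.47% of the counts on genes, alike in both groups.

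For the clone-named genes, overlaps could not be read from a position, and genes named after the same clone were compared instead. There were 7 others, of which 6 were tested. Of these 6, 2 were higher and 0 lower at a Benjamini-Hochberg adjusted p below 0.05 in edgeR. Over all genes tested, 16.3% were higher and 13.8% lower, and 6 genes are too few to compare with these shares. At an unadjusted p under 0.05, RP13-516M14.2 was higher as well. DESeq2 called 1 of the 6 higher and 0 lower.

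RP13-516M14.10 rose with RP13-516M14.8. It had 101, 128 and 133 counts in DMSO and 566, 410 and 436 counts on ZW27941, a rise from 0.808 ± 0.0899 to 2.90 ± 0.212 CPM (SD, n = 3 each). The log2 fold change was 1.84 with a standard error of 0.104 (adjusted p = 3.02e-11, edgeR quasi-likelihood, Benjamini-Hochberg). Its counts were 33.2%, 40.1% and 42.5% of those of RP13-516M14.8 in the DMSO libraries and 45.0%, 44.0% and 44.0% in the ZW27941 libraries. Whether the 2 share reads was not tested, and they may not be independent measurements.

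RP13-516M14.1, named after the same clone, did not pass the test. It was at 6.59 ± 0.297 CPM for DMSO and 6.61 ± 0.316 CPM for ZW27941 (SD, n = 3 each), a log2 fold change of 0.0043 with a standard error of 0.0615 (adjusted p = 0.966, edgeR quasi-likelihood, Benjamini-Hochberg). RP13-516M14.2 and RP13-516M14.4 had log2 fold changes of 0.27 (adjusted p = 0.109) and 0.36 (adjusted p = 0.242) in the same edgeR test.

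RP11-84C10.2 stood alone among the genes of its clone in level. RP11-84C10.1 had 8, 10 and 11 counts in DMSO and 13, 22 and 39 counts on ZW27941, a log2 fold change of 1.24 with a standard error of 0.432 (adjusted p = 0.0329, edgeR quasi-likelihood, Benjamini-Hochberg). This call was lost when any of the libraries other than ZW27941 replicate 1 was left out, and without ZW27941 replicate 3 the log2 fold change was 0.75 (adjusted p = 0.261 from the edgeR test). RP11-84C10.4 had 12, 24 and 34 counts in DMSO and 18, 10 and 17 counts on ZW27941, a log2 fold change of −0.75 (adjusted p = 0.145), and without DMSO replicate 1 it passed with −1.04 (adjusted p = 0.0463, both from the edgeR test). RP11-84C10.3 had 2 to 15 counts and was not tested.

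**Figure D3:**
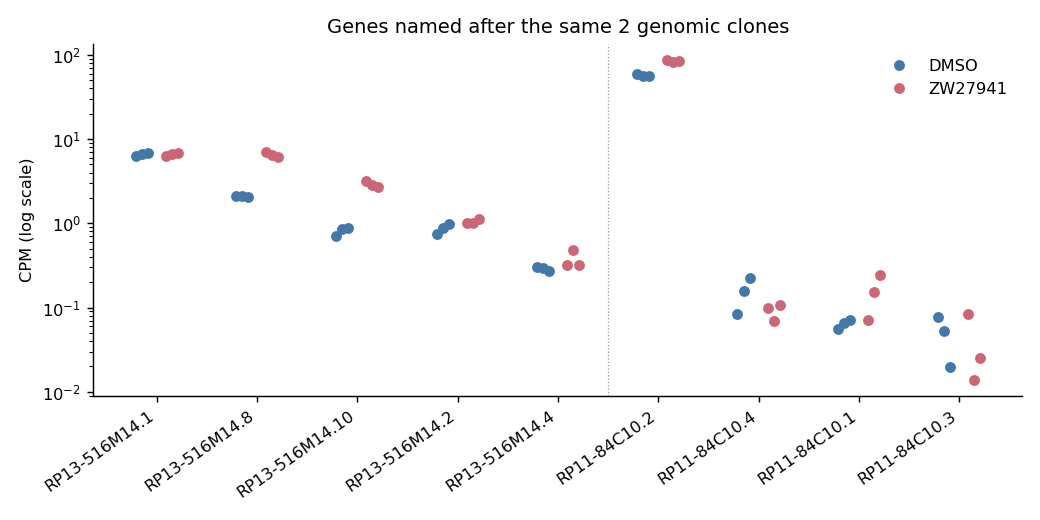
Level in CPM (log axis) of the 9 genes named after the clones RP13-516M14 (left of the dotted line) and RP11-84C10 (right of it) in each library, ordered by mean level within a clone, with DMSO in blue and ZW27941 in red. RP13-516M14.8 and RP13-516M14.10 are higher in all ZW27941 libraries, whereas the points of RP13-516M14.1 overlap between groups.

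Neighbours on the genome were compared for the genes with a position. First came tested genes with a position that overlap or lie nearest on each side, at whatever distance. Of these 15 tested neighbours, 2 (13.3%) were higher and 4 (26.7%) lower in edgeR's quasi-likelihood test, with a median log2 fold change of −0.012, beside 16.3% and 13.8% over all genes tested. RRP8, which encodes a nucleolar methyltransferase and lies 1317 bases from DNHD1, had a log2 fold change of 0.23 (adjusted p = 1.67e-05 from edgeR with Benjamini-Hochberg adjustment), while TIMM10B on the other side of DNHD1 had −0.14 (adjusted p = 0.00317 from the same test). GOLGA5, 96951 bases from ITPK1, had 0.11 (adjusted p = 0.00786 from the edgeR test). On the sides of SPOCK2, PSAP (207660 bases away) and ASCC1 (7000 bases away) had −0.14 and −0.17 (adjusted p = 2.42e-04 and 3.06e-04 from the edgeR test). POLR1E, 7195 bases from FBXO10, had −0.12 (adjusted p = 0.00245 from the edgeR test). None of the neighbours that passed changed by as much as the gene it neighbours, which was itself chosen for its rise.

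The tested genes nearest to FAM135B were ZFAT (log2 fold change 0.02), 3416974 bases away, and COL22A1 (−0.03), 91413 bases away. Those nearest to TNR were KIAA0040 (0.25) and RFWD2 (−0.01), 122195 and 201061 bases away. None of these genes passed the test, with adjusted p between 0.241 and 0.961 by edgeR's quasi-likelihood statistic, Benjamini-Hochberg adjusted. Near SIRPB2, FKBP1A had −0.06 (adjusted p = 0.0665), and RNU6-917P had 0.50 (adjusted p = 0.146, both from the edgeR test). FKBP1A passed without ZW27941 replicate 3 (adjusted p = 0.00784 from the edgeR test).

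In a window of 300 kb on each side, which was chosen after values had been seen, 57 genes were tested. Of these, 17 (29.8%) were higher and 8 (14.0%) lower, beside 16.3% and 13.8% over all genes tested. The median log2 fold change of the 57 genes was 0.081. The window around ITPK1 held 10 genes, of which 5 were higher by edgeR's quasi-likelihood test. The window around SPOCK2 held 3 higher and 4 lower of 8 genes, and that around DNHD1 5 higher and 2 lower of 14. GON7, a subunit of the KEOPS complex that modifies tRNA and 86574 bases from ITPK1, had a log2 fold change of 0.59 (adjusted p = 4.66e-10 from edgeR with Benjamini-Hochberg adjustment), above that of ITPK1. DDIT4, a stress-induced inhibitor of mTORC1 signalling in the window of SPOCK2, had −0.23 (adjusted p = 1.03e-06 from the same edgeR test).

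**Figure D4:**
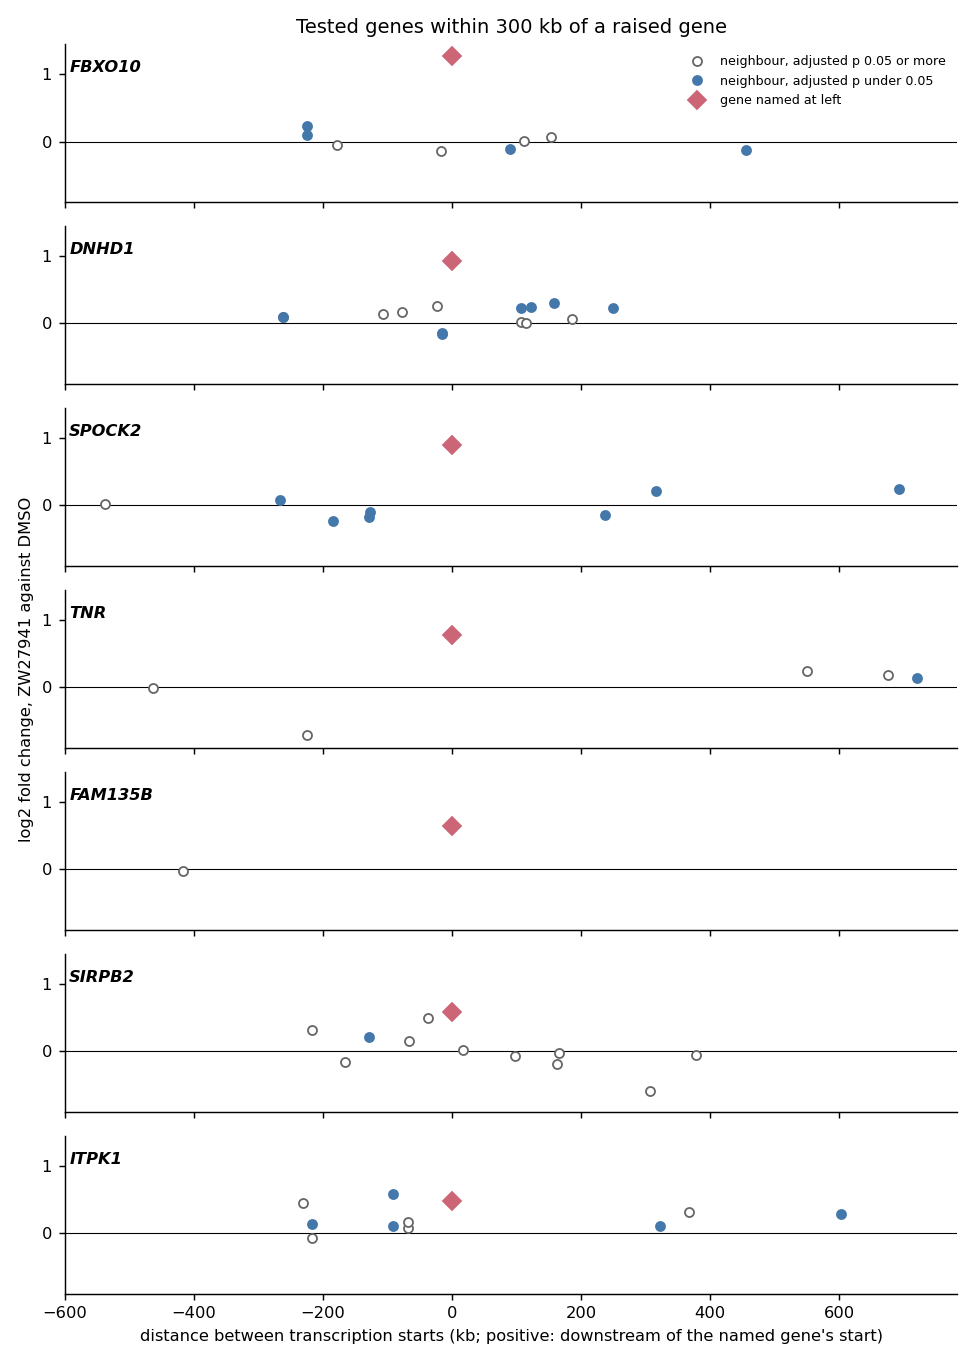
Log2 fold change of tested genes within 300 kb of each gene with a position, plotted against the distance between transcription starts in kb. The red diamond is the gene named at left, filled blue circles passed an adjusted p of 0.05 and open circles did not. The diamonds, which are genes chosen for their rise, lie above the other genes in all panels but that of ITPK1, where GON7 is higher.

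Relatives and partners of the named genes were then read as lists written by family or pathway. Together they held 122 genes, of which 93 were tested. Of these, 21 (22.6%) were higher and 16 (17.2%) lower by edgeR's quasi-likelihood statistic, Benjamini-Hochberg adjusted. Over all genes tested, 16.3% were higher and 13.8% lower, which are also the shares to set beside each list below. The median log2 fold change of the 93 genes was 0.0026.

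Among 32 tested genes for F-box proteins, SCF components and BCL2, 6 (18.8%) were higher and 5 (15.6%) lower, with a median log2 fold change of 0.01. FBXO4 rose from 19.5 ± 0.372 to 24.7 ± 0.423 CPM (SD, n = 3), a log2 fold change of 0.34 (adjusted p = 8.97e-08 from edgeR with Benjamini-Hochberg adjustment). FBXO22 had 0.18 (adjusted p = 4.64e-05 from the edgeR test). SKP1, the adaptor that holds F-box proteins in the ligase, had −0.14 (adjusted p = 0.00477 from the edgeR test), whereas the scaffold CUL1 (0.04) and the RING protein RBX1 (−0.04) did not pass. BCL2, the known substrate of FBXO10, was at 148 ± 2.53 CPM for DMSO and 150 ± 1.69 CPM for ZW27941 (SD, n = 3 each), a log2 fold change of 0.02 (adjusted p = 0.579 from the edgeR test), which is a value of its transcript only. FBXO10 itself was at 1.28. The count of lower genes fell to 2 without DMSO replicate 1 or without DMSO replicate 3, and to 3 without ZW27941 replicate 2.

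Of 18 tested dynein chains, 3 (16.7%) were higher and 5 (27.8%) lower, with a median log2 fold change of −0.05. The light chain gene DYNLL1 had 0.17 (adjusted p = 9.97e-05 from edgeR with Benjamini-Hochberg adjustment) and DYNC2LI1, of the dynein that works in cilia, had −0.22 (adjusted p = 3.14e-04 from the same test). The axonemal heavy chain DNAH1 had −0.15 (adjusted p = 0.00301 from the edgeR test), and DYNC1H1, the cytoplasmic heavy chain, had 0.05 and did not pass. DNHD1, at 0.92 and chosen for its rise, lay above all of them. The count of lower genes was 3 without DMSO replicate 3 or without ZW27941 replicate 1.

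Of 21 testicans, tenascins and matrix partners, only 6 had enough counts to be tested. TNXB, another tenascin, fell from 4.20 ± 0.153 to 2.53 ± 0.153 CPM (SD, n = 3), a log2 fold change of −0.73 (adjusted p = 3.82e-07 from edgeR with Benjamini-Hochberg adjustment), opposite to TNR. SPOCK1, the relative of SPOCK2, was at 6.72 ± 0.131 and 6.43 ± 0.548 CPM (SD, n = 3), a log2 fold change of −0.07 (adjusted p = 0.484 from the edgeR test), and SPOCK3 and TNC had at most 3 and 4 counts in a DMSO library. SPARC was higher (1.44, adjusted p = 0.00696 from the edgeR test), with 7 to 18 counts in DMSO, as was VCAN (0.33, adjusted p = 0.0294 from the edgeR test). Of the calls of higher genes in this list, 1 in place of 2 was left without DMSO replicate 1 or 2 or without ZW27941 replicate 1 or 2, and 0 with DESeq2.

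Of the 10 genes for SIRP receptors, their ligand and adaptors, all were tested, with 3 (30%) higher and 1 (10%) lower. SIRPA, the inhibitory receptor for CD47, rose from 152 ± 0.848 to 176 ± 1.49 CPM (SD, n = 3), a log2 fold change of 0.21 (adjusted p = 7.23e-07 from edgeR with Benjamini-Hochberg adjustment). SIRPB1 and the kinase SYK also had 0.21 (adjusted p = 5.21e-05 and 6.48e-07 from the edgeR test). The phosphatase PTPN6 had −0.09 (adjusted p = 0.0108 from the edgeR test), a call lost without DMSO replicate 2 or ZW27941 replicate 2, and the count of lower genes was 2 without ZW27941 replicate 3. CD47 (0.02) and the adaptor TYROBP (−0.06) did not pass. SIRPB2, at 0.58 and likewise chosen for its rise, was above its relatives.

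Of 26 tested genes for inositol phosphate enzymes and receptors, 6 (23.1%) were higher and 4 (15.4%) lower, with a median log2 fold change of −0.0012. The count of lower genes was 7 with upper quartile scaling and 1 at an adjusted p of 0.01. NUDT3, a diphosphoinositol polyphosphate phosphohydrolase, rose from 147 ± 3.64 to 175 ± 1.00 CPM (SD, n = 3), a log2 fold change of 0.25 (adjusted p = 1.65e-07 from edgeR with Benjamini-Hochberg adjustment). INPP1, an inositol polyphosphate phosphatase, had 0.34 (adjusted p = 3.97e-04 from the edgeR test). The kinases IPMK (0.01) and IPPK (−0.05), which act on the same route as ITPK1, did not pass. FAM135A, the paralog of FAM135B, was at 26.0 ± 0.772 and 28.0 ± 1.07 CPM (SD, n = 3), a log2 fold change of 0.11 (adjusted p = 0.0217 from the edgeR test). The call of FAM135A was lost without DMSO replicate 2, ZW27941 replicate 1 or ZW27941 replicate 2, with adjusted p from 0.0873 to 0.120 in the edgeR test.

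**Figure D5:**
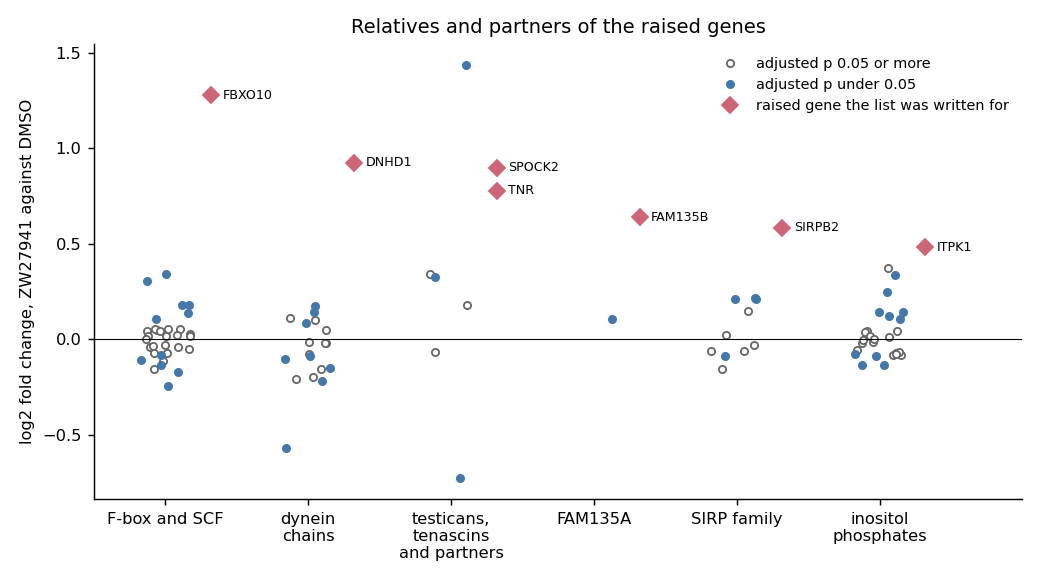
Log2 fold change of ZW27941 against DMSO for tested genes of each family or partner list (filled blue, adjusted p under 0.05, open, not) and for the raised gene or genes the list was written for (red diamonds). Except for SPARC, which had 7 to 18 counts in DMSO libraries, the listed genes lie below the diamonds of their own list. The diamonds mark genes chosen for their rise.

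For each of the 9, the gene with the most similar profile over the 6 libraries was sought. The measure was the root mean square difference in log2 CPM centred on the DMSO mean. The search covered 12229 genes outside the 9 whose mean log2 CPM was 1 or more, so the 9 were not compared with each other. The closest gene was TST for RP13-516M14.8 (0.625) and FBXO10 (0.362), although its log2 fold change of 0.77 was below both. RP13-516M14.10, left out by its mean log2 CPM of 0.93, was at 0.182 from RP13-516M14.8. APOL4, an apolipoprotein L gene, was closest to DNHD1 (0.135) and SPOCK2 (0.124). TREM1, a receptor of myeloid cells, was closest to TNR (0.0880), TYMSOS to FAM135B (0.0233) and ADPRH to SIRPB2 (0.0241). LAMTOR2, a subunit of the lysosomal Ragulator complex, was closest to RP11-84C10.2 (0.0327) and NPTX2 to ITPK1 (0.0158).

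Among raised genes outside the 9, those with the lowest p were LAMTOR2, RP13-516M14.10, APOL4, PDIA4 and POLQ. LAMTOR2 was at 39.9 CPM in DMSO and 58.6 CPM on ZW27941, a log2 fold change of 0.55 (adjusted p = 1.77e-11 from edgeR with Benjamini-Hochberg adjustment). PDIA4, a protein disulfide isomerase of the endoplasmic reticulum, was at 84.5 and 114 CPM, a log2 fold change of 0.43 (adjusted p = 3.33e-11 from the edgeR test). POLQ, a DNA polymerase of end joining, was at 63.6 and 86.9 CPM, a log2 fold change of 0.45 (adjusted p = 4.17e-11 from the edgeR test).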

How the data were processed

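The authors deposited raw counts of reads per gene symbol for each library, made with HTSeq 2.0.3. The submitters' processing notes also name HISAT2, SAMtools 1.19.2 and hg38, while the annotation and the strand setting are not given in the sources used here. The counts on genes exceed the raw reads per sample that the labels state, and the reason is not known. HTSeq's 5 tallies of unassigned reads, 37.4% to 39.8% of each library, were left out. Depth was 143454176 to 178744976 counts on genes per library, and the common coefficient of biological variation was 3.11%.

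The comparison was run with edgeR 4.0.16 under R 4.3.3 (TMM, filterByExpr, quasi-likelihood test, no covariates), with Benjamini-Hochberg adjustment over the 20399 genes tested and a threshold of 0.05. The steps were tested on simulated data. The 9 genes and the lists were chosen with earlier results of these data known. Named genes were the 9 genes, genes of the same clones, overlapping and nearest tested genes, the 2 genes with the lowest p past the threshold in each list, the 5 raised genes with the lowest p outside the 9 and the closest profile of each. Other genes were named after their values were seen. Symbols were matched to GENCODE v29 and to RefSeq tables of GRCh38.p14, and clone or accession names were not matched across releases. As alternatives, RLE, upper quartile and library-size scaling were used in place of TMM, along with DESeq2 1.42.0, other filters, an adjusted p of 0.01, the replicate number as a block and each library left out in turn.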

Additional observations from a re-analysis of the deposited data

How the results depend on the processing

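All 9 genes kept a positive log2 fold change under every alternative run, and 116 of 117 values stayed within 1 replicate SD. The kept sign follows from how the genes were chosen, since every ZW27941 library lay above every DMSO library. It is given as a description. The exception was ITPK1, at 0.46 with upper quartile normalization against 0.48. Left-out libraries moved RP13-516M14.8 between 1.60 and 1.68 and TNR between 0.72 and 0.87. The share of calls that were higher was 54.2%, and 42.1% with upper quartile normalization.

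With an adjusted p of 0.01, genes lower numbered 1725 and family genes lower 7. Same-clone genes higher numbered 1 with DESeq2, with at least 10 counts in every library and at an adjusted p of 0.01. With 1 library left out, same-clone genes higher ranged from 1 to 2, same-clone genes lower from 0 to 1 (1 without DMSO replicate 1) and family genes lower from 10 (without DMSO replicate 3) to 16. Within the lists, the count of lower F-box genes was 3 with no filter and 1 at an adjusted p of 0.01, and that of lower SIRP genes was 2 with upper quartile normalization and 0 at 0.01. The count of higher matrix genes was 1 with at least 10 counts in every library and at 0.01. The cause was not tested.

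Genes near zero changed sign. With upper quartile normalization, ZFAT was −0.0048, NSFL1C −0.0033 and RP13-516M14.1 −0.019. With 1 library left out, RFWD2 ranged from −0.029 to 0.0062, COL22A1 from −0.17 to 0.13, NSFL1C from −0.00036 to 0.036 and RP13-516M14.1 from −0.030 to 0.043. None passed the threshold in these fits. FKBP1A passed with upper quartile normalization (adjusted p = 0.0134 from edgeR) and DESeq2 (adjusted p = 0.0410), and FAM135A did not with upper quartile normalization (adjusted p = 0.0700 from edgeR).

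The labels do not say that equal replicate numbers belong together. Deviations from the group means correlated at −0.0725, −0.0306 and 0.131 for equal numbers and at 0.237 for DMSO replicate 2 with ZW27941 replicate 1. With 3 libraries per group, these values cannot decide whether the samples were paired. With the replicate block, 3243 genes were higher and 2767 lower, against 3333 and 2816, and the median log2 fold change of the 9 genes was 0.78. Few counts limit RP11-84C10.1, RP11-84C10.4 and SPARC.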
